A study of Mus musculus with 6 samples.

Results

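Havcr1, Lcn2, Spp1, Clu, Vcam1 and Sox9 are genes widely read as marks of an injured kidney tubule, and their levels were followed here through 6 droplet libraries of single cells in which tissue had been broken down in different ways. The 6 genes were taken by symbol from the deposited gene list, in which each names 1 of 31053 genes. In kidney, 3 libraries held cells from C57BL/6 mice aged 12 weeks, and the other 3 held cells of mammary tumor from MMTV-PyMT mice aged 10 weeks, whose polyoma middle T transgene is driven by the mouse mammary tumor virus promoter. From each tissue there was a control, minced and digested in collagenase for 60 min, and a pair of collections from a microfluidic digestion platform, called here the 15 min interval and the 60 min interval. By the study's methods, conditions tested side by side used tissue of 1 mouse, and the platform's intervals were taken in turn from the same tissue, so the 60 min interval holds what remained after the 15 min collection. All 6 suspensions had been treated with type I collagenase, DNase I and a red blood cell lysis buffer, and live cells had been sorted as negative for SytoxBlue. Each condition of a tissue was 1 library, so no test between conditions was possible, and the labels name no treatment that injures the kidney.

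After acute damage, tubule cells lose part of their transport program and switch on a repair state. Havcr1 encodes kidney injury molecule 1, a receptor on proximal tubule cells that takes up dead cells, and Lcn2 encodes a secreted lipocalin (NGAL) that binds siderophores and is also a granule protein of neutrophils. Spp1 encodes osteopontin, a secreted phosphoprotein that binds integrins and CD44 and is made by distal tubule cells of the healthy kidney. Clu encodes the secreted chaperone clusterin, and Vcam1 encodes an adhesion receptor for leukocytes that marks endothelium, some macrophages and, after injury, tubule cells that fail to repair. Sox9 encodes a transcription factor that turns on in regenerating tubule cells and is also expressed in mammary epithelium.

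Spp1 was the member found in the most tubule segments, so the 250 bases in front of its start are shown, as RefSeq gives them for build GRCm38.p6 (chr5:104434861-104435110, plus strand). Capitals mark the letters TATAAA, the letters ACCACA, which are a core of the Runx motif, and CCAAT, which lies on the opposite strand and is read here as its complement.
Spp1 upstream: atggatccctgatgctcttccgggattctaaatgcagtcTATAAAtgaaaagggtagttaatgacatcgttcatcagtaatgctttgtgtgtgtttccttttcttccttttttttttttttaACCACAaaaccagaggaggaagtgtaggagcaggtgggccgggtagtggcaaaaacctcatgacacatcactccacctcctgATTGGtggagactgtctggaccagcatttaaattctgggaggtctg
Letters were searched on both strands of 32851 such windows. TATAAA stood 211 bases before the start and was held by 12.4% of the windows, ACCACA stood 128 bases before it and was held by 14.0%, and CCAAT stood 46 bases before it and was held by 33.8%. Other patterns had no match in this window, namely TGANTCA (6.75% of the windows), CACGTG (6.02%) and GGGCGG (32.7%). The table held upstream sequence of Havcr1, Lcn2 and Spp1, that is 3 of the 6 members.

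The genes lie at chr11:46735080-46779578 (Havcr1, plus strand), chr2:32384633-32388252 (Lcn2, minus), chr5:104435118-104441050 (Spp1, plus), chr14:65968483-65981547 (Clu, plus), chr3:116109949-116129688 (Vcam1, minus) and chr11:112782224-112787760 (Sox9, plus) in GRCm38, the assembly also called mm10. An antisense gene, Gm43109, overlaps Vcam1 on the other strand and is counted separately in the files. Another annotated gene, Gm42793, overlaps Spp1 on the same strand and is absent from the deposited gene list. Its part in the Spp1 counts was not tested.

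Levels are UMIs (molecules counted once by their barcode) per 1000000 UMIs of the same cells, written CPM, with exact intervals that cover counting error only. The kidney libraries held 8233 (control), 12082 (15 min interval) and 13719 (60 min interval) cells and between 69691783 and 116998401 UMIs, and the tumor libraries held between 8152 and 8198 cells and between 90414805 and 101222030 UMIs. Between 53 and 211 cell barcodes were shared by pairs of kidney libraries and between 16 and 21 by pairs of tumor libraries. Without those cells 1 count of members below changed, and it is given beside that count. Filters on genes and on the mitochondrial share kept 5886, 8390 and 9936 kidney cells, in which the median mitochondrial share was 7.38%, 20.4% and 8.59%. A kept cell joined a class, written "-like", when markers of 1 panel dominated. The defining markers were present in the tubule classes, since Slc34a1 was detected in 98.2% of proximal tubule-like cells, Slc12a1 in 93.3% of thick ascending limb-like cells, Slc12a3 in 93.9% of distal convoluted tubule-like cells, Aqp2 in 89.7% of principal-like cells and Atp6v1g3 in 100% of intercalated-like cells. In tumor, Epcam was detected in 98.5% of epithelial-like cells. These genes are part of the gates, so the shares check the gates and are no finding.

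**Figure D1:**
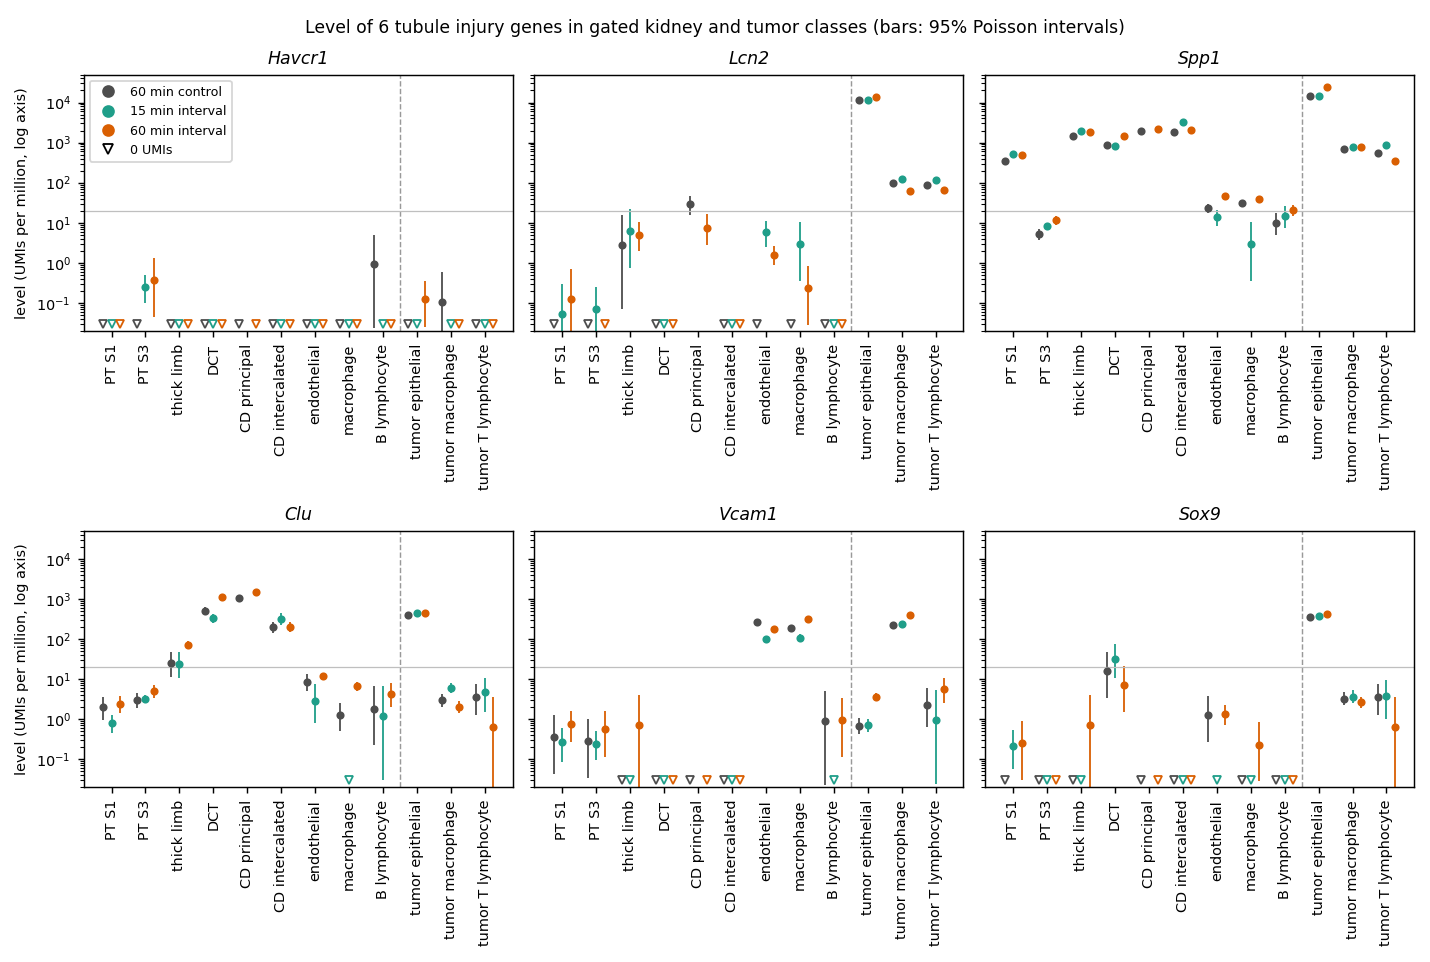
Level of each of the 6 genes (vertical log axis, CPM) in 9 kidney and 3 tumor classes, with 1 point for each library, 95% Poisson intervals as bars and open triangles for 0 UMIs. The grey line marks 20 CPM. Among kidney classes Spp1 and Clu stood highest in the distal ones and Vcam1 in endothelial-like and macrophage-like cells, and the highest points of Lcn2, Spp1 and Sox9 are those of tumor epithelial-like cells.

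In the kidney libraries as a whole, Spp1, Clu and Vcam1 reached 20 CPM, and Havcr1, Lcn2 and Sox9 did not. Spp1 stood at 180 CPM in kept cells of the control, 205 in the 15 min interval and 299 in the 60 min interval. Clu stood at 37.8, 5.70 and 63.0 CPM, and Vcam1 at 52.6, 3.89 and 92.6 CPM. The 15 min interval thus held the least Clu and Vcam1 by a wide margin, while Spp1 was close to its control level there.

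A gene was called when its ratio between a pair of libraries was at least 2-fold in either direction and it reached 20 CPM in either library. In the 15 min interval against the control, Clu (0.15, 95% counting interval 0.13 to 0.17) and Vcam1 (0.07, 0.06 to 0.08) were called lower, 2 of the 3 members tested, where 17.9% of all genes tested were called lower and 3.23% higher. Between the 60 min interval and the control, none of the 3 was called, with ratios of 1.66 (Spp1), 1.67 (Clu) and 1.76 (Vcam1), beside 5.82% of all genes called higher and 0.432% lower. Between the 2 intervals, Clu (11.1, 9.90 to 12.4) and Vcam1 (23.8, 20.9 to 27.2) were called higher in the 60 min interval, beside 32.1% of all genes. These 3 ratios share libraries and are not independent of each other.

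The makeup of the libraries moved with these ratios. Proximal tubule-like cells were 47.1%, 83.3% and 25.3% of kept cells in the control, the 15 min interval and the 60 min interval. Endothelial-like cells were 9.85%, 4.37% and 24.3%, and macrophage-like cells 14.2%, 1.55% and 14.6%. In a sum over a library, fewer cells of a type and less RNA per cell cannot be told apart, so the members are given next within classes.

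Proximal tubule-like cells numbered 2775 in the control, 6985 in the 15 min interval and 2516 in the 60 min interval, and Spp1 was the only member to reach 20 CPM in them. It stood at 132 CPM in the control, 190 in the 15 min interval and 267 in the 60 min interval. The control was lowest and the 60 min interval highest, and the counting intervals of the ratios lay apart from 1. The ratio to the control was 1.44 (1.38 to 1.51) for the 15 min interval and 2.02 (1.92 to 2.12) for the 60 min interval, and only the second was called. Among all genes tested in these cells, 0.0235% were called higher in the first comparison and 1.51% in the second.

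Of these Spp1 UMIs, 2010 of 2312 in the control, 9849 of 10418 in the 15 min interval and 4030 of 4366 in the 60 min interval lay in cells with markers of the S1 segment, the convoluted start of the proximal tubule next to the glomerulus. S1-like cells, defined by Slc5a2, Slc5a12, Slc7a7 and Slc7a8, held 357 CPM of Spp1 in the control, 516 in the 15 min interval and 502 in the 60 min interval. S3-like cells, of the straight segment, held 5.15, 8.52 and 11.7 CPM, counted from 36, 245 and 63 UMIs. B lymphocyte-like cells, which should not make Spp1, gave 10.0, 14.6 and 20.4 CPM. In CPM, Spp1 in S3-like cells was thus below its level in B lymphocyte-like cells, while S1-like cells stood 35.6, 35.3 and 24.6 times above the latter. S3-like cells were deeper, with medians of 7451, 8354 and 7584 UMIs against 3536, 3569 and 3575 in B lymphocyte-like cells. Whether Spp1 in S3-like cells was free RNA of the droplets was not tested. The S1-like level exceeded the S3-like level by 69.3 (49.9 to 99.2), 60.6 (53.3 to 69.0) and 43.0 (33.5 to 56.0) times.

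Within S1-like cells Spp1 was 1.45 (1.38 to 1.52) times the control in the 15 min interval and 1.41 (1.34 to 1.49) times in the 60 min interval, and the intervals differed from each other by less than the counting error (0.97, 0.94 to 1.01). Neither ratio was called. The share of S1-like cells among proximal tubule-like cells was 29.0%, 37.0% and 45.3%, and S1-like cells held 32.2%, 34.9% and 49.0% of the UMIs of the class. Cells given neither segment were 38.9%, 16.3% and 27.5% of the class. Their median was 3699.5, 5225 and 3410 UMIs a cell, against 6697, 6844 and 6876 in S1-like cells. The S1 gate needed at least 2 UMIs of its panel, and the part of depth in these shares was not tested. When the segments were weighted as in the control, the ratio of the 60 min interval to the control over all proximal tubule-like cells was 1.45 in place of 2.02, and that to the 15 min interval 1.05 in place of 1.40. Each segment's own mean expression was left as measured in that weighting, which was added after the data were seen. It took the cells given neither segment as a group of their own. The median mitochondrial share of S1-like cells was 15.5%, 24.9% and 17.6%, and its part in the ratios was not tested beyond the removal of mitochondrial UMIs from the totals, after which the 2 ratios to the control were 1.59 and 1.43.

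Spp1 was spread unevenly over S1-like cells. The median cell held 1.61, 2.63 and 2.42 UMIs per 10000 in the 3 libraries, and the cell at the 90th percentile 11.4, 15.3 and 13.8. The tenth of cells with the most Spp1 UMIs held 51.0%, 46.1% and 50.8% of them. A UMI of Spp1 was found in 58.0%, 67.1% and 65.2% of S1-like cells, and in 26.6%, 33.1% and 29.6% once each cell was thinned to 1000 UMIs. The thinned share was 1.43%, 0.46% and 1.48% in B lymphocyte-like cells and 0.45%, 0.74% and 1.19% in S3-like cells.

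**Figure D2:**
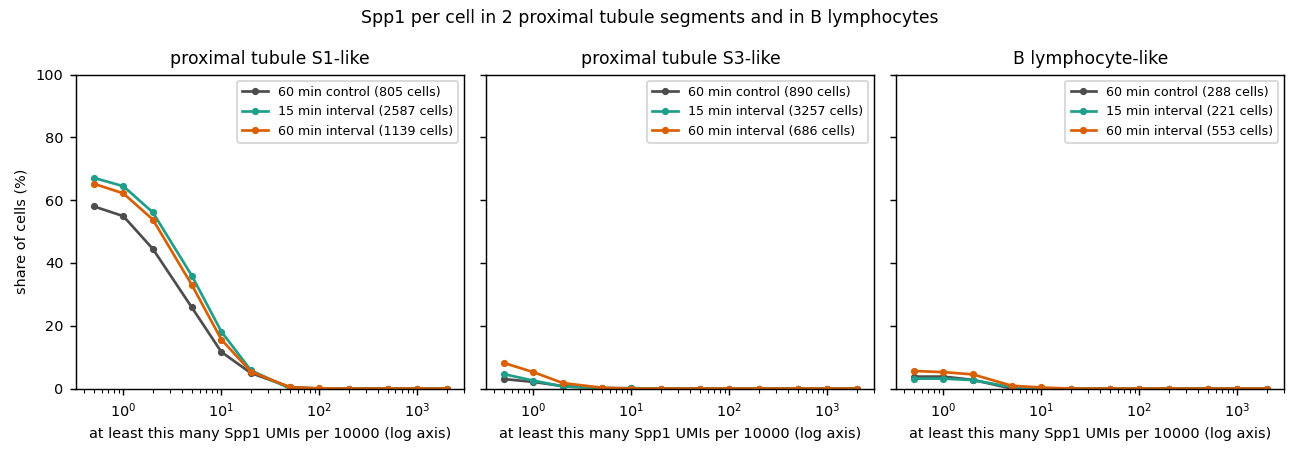
Share of cells (vertical axis, percent) that held at least a given number of Spp1 UMIs per 10000 (horizontal log axis) in S1-like, S3-like and B lymphocyte-like kidney cells, with 1 line for each library. In S1-like cells both platform lines lie above the control line up to about the level where few cells remain, and the S3-like lines lie close to those of B lymphocyte-like cells.

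Havcr1, the classic mark of the injured proximal tubule, was almost absent from it. Proximal tubule-like cells held 0 UMIs of Havcr1 in the control, 7 in the 15 min interval and 2 in the 60 min interval, all of them in S3-like cells. The control count of 0 allows up to 0.17 CPM (3 counts). Whole libraries held 14, 24 and 26 UMIs (0.20, 0.21 and 0.23 CPM) over all deposited cells, and 9, 11 and 13 of these lay in cells above the gene limit. Dendritic-like cells, few as they were (44, 8 and 100), held 2, 5 and 5. None of the distal classes, nor endothelial-like or macrophage-like cells, held a Havcr1 UMI. At this depth Havcr1 could not be compared between libraries.

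Lcn2, Vcam1 and Sox9 were also sparse in the proximal tubule-like class. Lcn2 gave 0, 3 and 1 UMIs, Sox9 1, 4 and 2, and Vcam1 7, 14 and 11, the last being 0.40, 0.26 and 0.67 CPM. Clu stood at 2.63, 2.08 and 4.64 CPM there, against 1.82, 1.22 and 4.27 CPM in B lymphocyte-like cells.

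The distal nephron-like classes held the highest Spp1 levels of the kidney. Principal-like cells, the water and sodium transporting cells of the collecting duct, stood at 1950 CPM in the control (126 cells) and 2239 in the 60 min interval (181 cells). Intercalated-like cells, its acid-base cells, stood at 1797, 3312 and 2090 CPM in 43, 25 and 41 cells. Thick ascending limb-like cells, which dilute the urine, stood at 1421, 1911 and 1795 CPM in 101, 64 and 340 cells. Distal convoluted tubule-like cells stood at 894, 808 and 1489 CPM in 46, 27 and 106 cells. The 13 principal-like cells of the 15 min interval (4225 CPM) and the 8, 3 and 15 thin limb-like cells (1258, 7678 and 6537 CPM) were too few for a ratio.

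The order of the segments held in both libraries with enough cells of each. Principal-like and intercalated-like cells could not be separated (intercalated over principal 0.92, 0.82 to 1.04, in the control and 0.93, 0.84 to 1.03, in the 60 min interval). Principal-like cells were 5.47 and 4.46 times above S1-like cells, and thick limb-like cells 3.99, 3.71 and 3.57 times above them in the 3 libraries. A UMI of Spp1 was found, after thinning, in 61.7% and 63.6% of principal-like cells and in 62.8%, 67.8% and 64.5% of thick limb-like cells.

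No distal class had Spp1 called in any comparison, beside 3.1% to 20.4% of all genes called in a given direction. Against the control, the 15 min interval was higher in intercalated-like cells (1.84, 1.60 to 2.13) and thick limb-like cells (1.34) and lower in distal convoluted tubule-like cells (0.90). The 60 min interval was higher in distal convoluted tubule-like cells (1.67, 1.40 to 1.99) and closer to the control in thick limb-like (1.26), principal-like (1.15) and intercalated-like cells (1.16). Few cells stood behind some of these values, since 25 intercalated-like cells made the 15 min value.

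The classes that held the Spp1 of a library differed between libraries. S1-like cells held 33.2%, 78.0% and 25.7% of the Spp1 UMIs of kept cells. The distal classes together held 35.9%, 10.8% and 38.7%. Cells with 2 competing panels held 15.4%, 5.1% and 17.0%, and cells with too few markers 5.6%, 1.0% and 10.3%, so part of the gene's UMIs has no segment.

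**Figure D3:**
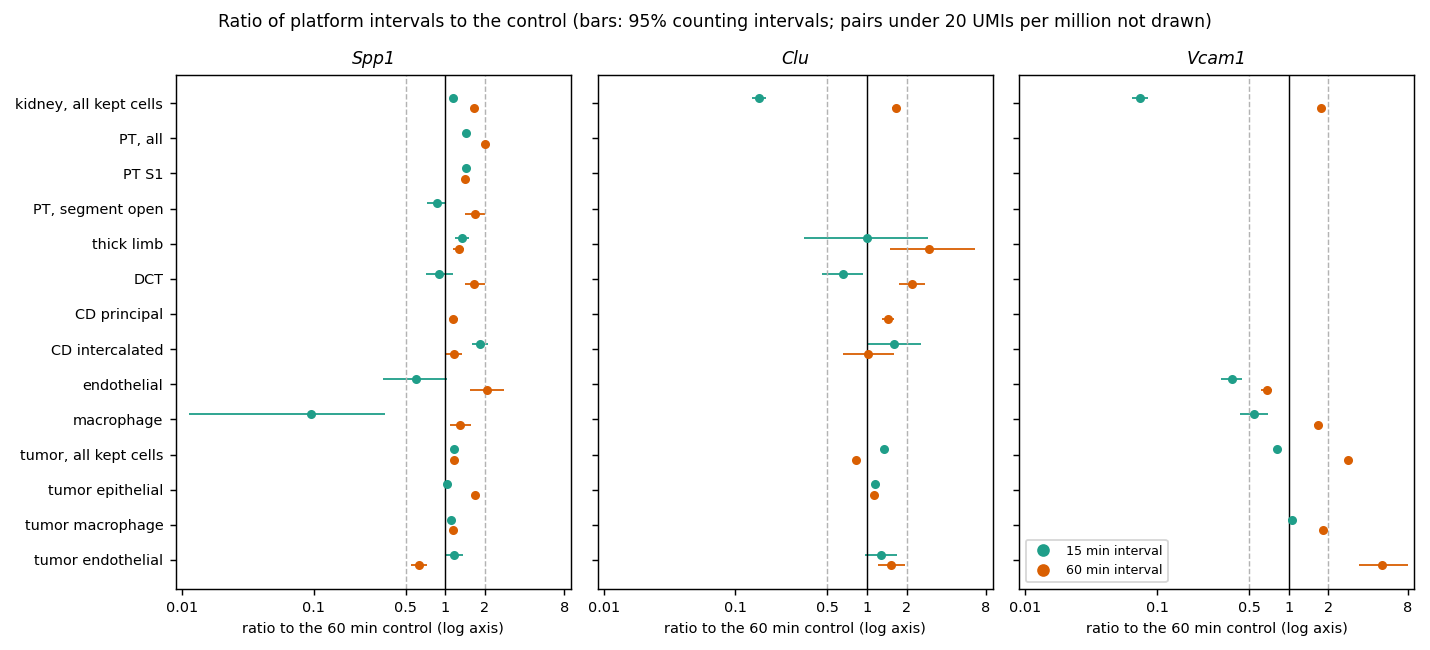
Ratio of each platform interval to the 60 min control (horizontal log axis) for Spp1, Clu and Vcam1 in kept cells and in 12 classes, with 95% counting intervals as bars, dashed lines at 2-fold, and only pairs of at least 20 CPM drawn. For Clu and Vcam1 the 15 min points of the whole kidney library lie far to the left, at 0.15 and 0.07, and those of its classes lie closer to 1. For Spp1 the 60 min points of S1-like (1.41) and thick limb-like cells (1.26) lie below that of all proximal tubule-like cells (2.02).

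Clu marked the distal nephron more narrowly than Spp1. Principal-like cells stood at 1043 CPM in the control and 1504 in the 60 min interval, a ratio of 1.44 (1.30 to 1.60). Distal convoluted tubule-like cells stood at 500, 327 and 1095 CPM, and intercalated-like cells at 196, 313 and 200 CPM. Thick limb-like cells stood at 24.5, 24.4 and 72.3 CPM. Principal-like cells thus stood 42.5 (22.3 to 93.5) and 20.8 (17.0 to 25.7) times above thick limb-like cells, which were rich in Spp1.

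In the 60 min interval against the control, Clu was called higher in distal convoluted tubule-like cells (2.19, 1.75 to 2.76) and in thick limb-like cells (2.95, 1.49 to 6.63). In those classes 3.38% and 5.99% of all genes were called higher. The thick limb call rested on 9 UMIs in the control and 102 in the 60 min interval, of which 92.2% lay in the tenth of cells with the most. It did not hold when each cell went to its panel of highest level (0.96). The distal convoluted tubule call was lost in 3 settings: without a limit on the mitochondrial share (1.22), as a mean over cells (1.46) and with the panel of highest level (1.21). The 15 min interval was lower than the control in distal convoluted tubule-like cells (0.65, 0.46 to 0.93), short of a call.

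Counted over the distal classes, 7 pairs of a member and a class were tested in the 15 min interval against the control, and 1 was called higher. That was Sox9 in distal convoluted tubule-like cells, with 3 UMIs in the control and 5 in the 15 min interval (2.01, 0.39 to 12.9), beside 9.81% of all genes of the class called higher, and it was not called without cells of shared barcodes. In the 60 min interval against the control, 9 pairs were tested, 2 were called higher (Clu, above) and 1 lower. The lower call was Lcn2 in principal-like cells, at 28.5 and 7.53 CPM from 15 and 6 UMIs (0.26, 0.08 to 0.72), beside 3.1% of all genes of the class called lower. Against the 15 min interval, Clu in the 60 min interval was called higher in thick limb-like (2.96) and distal convoluted tubule-like cells (3.35), and Sox9 lower in the latter (0.22), out of 7 pairs. In thick limb-like cells 7.39% of all genes were called higher in that comparison, and in distal convoluted tubule-like cells 3.75% higher and 20% lower.

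Clu and Spp1 were often found in the same principal-like cells. Of those with a Spp1 UMI, 62.0% in the control and 63.6% in the 60 min interval also held Clu after thinning, against 31.8% and 31.7% of those without. Differences of quality among these cells were not tested.

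Most Lcn2 UMIs in kept kidney cells of the control and the 60 min interval lay outside the tubule, in granulocyte-like cells. Granulocyte-like cells, only 36, 9 and 41 in number, stood at 613, 336 and 627 CPM and held 47, 7 and 64 of the 73, 23 and 106 Lcn2 UMIs in kept cells. Their 60 min interval and control could not be told apart (1.02, 0.69 to 1.52). Thick limb-like cells gave 1, 2 and 7 UMIs, and intercalated-like and distal convoluted tubule-like cells 0 in all 3 libraries. Principal-like cells, whose Lcn2 is given above, held more of its UMIs in the control than these tubule classes.

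Vcam1 in kidney lay mostly in endothelial-like and macrophage-like cells, with 140 and 79.0 CPM in the few stromal-like cells of the control and the 60 min interval (26 and 40). In endothelial-like cells it stood at 268, 98.6 and 182 CPM (580, 367 and 2417 cells). The control was highest, and the 15 min interval was called lower (0.37, 0.30 to 0.44), as were 2.62% of all genes of the class. In macrophage-like cells Vcam1 stood at 192, 105 and 320 CPM (835, 130 and 1450 cells), and here the 60 min interval was highest. The ratio to the control was 0.55 (0.43 to 0.69) for the 15 min interval and 1.66 (1.55 to 1.79) for the 60 min interval, with no call, and the 60 min interval was called higher than the 15 min interval (3.04, 2.41 to 3.89), as were 6.31% of all genes. The ratio of macrophage-like to endothelial-like cells went from 0.72 in the control to 1.76 in the 60 min interval. Distal convoluted tubule-like and collecting duct-like cells held 0 Vcam1 UMIs in all 3 libraries, and thick limb-like cells 0, 0 and 1.

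B lymphocyte-like kidney cells held Spp1 at 10.0 to 20.4 CPM, and the other classes outside the tubule ranged from below to above that level. Endothelial-like cells stood at 22.9, 13.7 and 47.1 CPM, and their 60 min interval was called higher than the control (2.06) and the 15 min interval (3.45), as were 0.491% and 1.88% of all genes. Macrophage-like cells stood at 30.5, 2.89 and 39.5 CPM. Their 15 min interval was called lower than the control, from 2 and 173 UMIs, beside 4.65% of all genes. Their 60 min interval was called higher than the 15 min interval (13.7), beside 6.31%. B lymphocyte-like cells (2.04) and T lymphocyte-like cells (2.16, with 16.5, 37.6 and 35.6 CPM) were called higher in the 60 min interval than in the control, beside 1.16% and 1.18% of all genes. B lymphocyte-like cells, which should not make Spp1, thus rose about as much as endothelial-like and T lymphocyte-like cells. The part of free RNA in these calls was not tested. T lymphocyte-like cells were also called higher in the 15 min interval (2.28), beside 3.31% of all genes, with 17 of their 24 UMIs in 1 cell. Granulocyte-like cells stood at 417 CPM in the control, at 0 UMIs in the 9 cells of the 15 min interval, which allows up to 144 CPM, and at 39.2 CPM in the 60 min interval, and were called lower in the 60 min interval than in the control, beside 6.78% of all genes, with 29 of the 32 control UMIs in 1 cell.

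Sox9 was rare in kidney, with 38, 25 and 156 UMIs over all deposited cells. Most of these (24, 16 and 123) lay in cells above the limit of 3000 genes, which the filters removed. Cells with at least 5 Sox9 UMIs numbered 0 in the control, 0 in the 15 min interval and 6 in the 60 min interval. All 6 lay above the gene limit, at 3980 to 9154 genes, 5 of them carried markers of competing panels, and they held 71 to 517 UMIs of Spp1 and 2 to 62 of Clu. Vcam1 was found in 5 of them. Whether such droplets held several cells was not tested.

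The tumor shows what the same members looked like in another epithelium under the same 3 treatments. Epithelial-like cells were 59.1%, 68.1% and 42.0% of kept tumor cells (3391, 3950 and 2528 cells). In them Spp1 stood at 14304, 14766 and 24121 CPM, Lcn2 at 11594, 11885 and 13508, Clu at 390, 448 and 444, and Sox9 at 347, 379 and 411 CPM. Each of these 4 genes was above its level in T lymphocyte-like cells of the same library, by 131, 99.3 and 206 times for Lcn2 and by 25.5, 17.4 and 70.3 times for Spp1. Vcam1 (0.69, 0.71 and 3.55 CPM) and Havcr1 (0, 0 and 3 UMIs) were near the floor.

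None of the 4 members tested in tumor epithelial-like cells was called in any of the 3 comparisons. Against the control, the 15 min interval gave ratios of 1.03 (Lcn2 and Spp1), 1.15 (Clu) and 1.09 (Sox9), beside 0.248% of all genes called higher and 1.33% lower. The 60 min interval gave 1.69 (1.68 to 1.69) for Spp1, 1.17 for Lcn2, 1.14 for Clu and 1.18 for Sox9, beside 0.668% of all genes called higher and 0.324% lower. The 60 min interval was thus the library with the most Spp1 in tumor epithelial-like cells, as in the proximal tubule-like class. With the segments weighted in that kidney class, its lead over the 15 min interval was smaller, as given above.

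Spp1 varied widely among tumor epithelial-like cells. The median cell held 15.7, 20.5 and 85.0 UMIs per 10000, and the cell at the 90th percentile 433, 480 and 694. At least 100 per 10000 were found in 30.6% (29.0 to 32.2), 34.5% (33.0 to 36.0) and 47.7% (45.7 to 49.6) of cells. In macrophage-like cells of the tumor that share was 0.73%, 0.70% and 0.50%, and in T lymphocyte-like cells 0 of 218, 164 and 287 cells (exact upper limits 1.68%, 2.22% and 1.28%). Lcn2 was more even, with medians of 78.3, 91.1 and 99.9 UMIs per 10000 and 39.6%, 45.8% and 49.9% of cells at 100 or more.

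**Figure D4:**
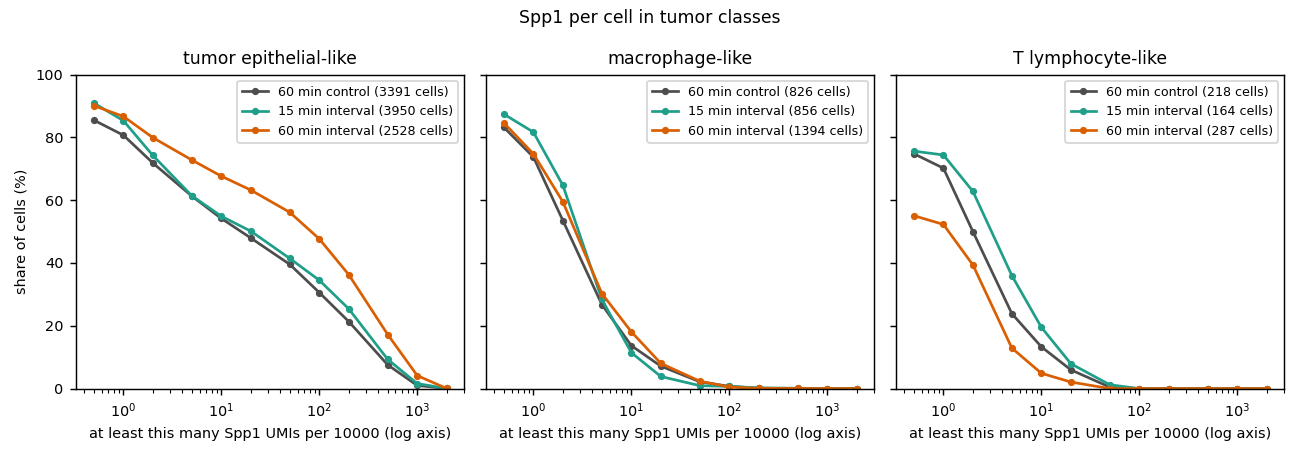
Share of cells (vertical axis, percent) that held at least a given number of Spp1 UMIs per 10000 (horizontal log axis) in tumor epithelial-like, macrophage-like and T lymphocyte-like cells, with 1 line for each library. At 100 per 10000 the 60 min interval line of epithelial-like cells stands at 47.7%, above 30.6% and 34.5%, and the T lymphocyte-like lines are at 0.

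Basal-like epithelial cells, which carry at least 2 of Krt5, Krt14, Krt17 and Trp63, were 2.15%, 2.68% and 6.88% of the epithelial-like cells. Their Spp1 stood at 12814, 9014 and 18489 CPM, with the 60 min interval called higher than the 15 min interval (2.05, 2.01 to 2.10), as were 2.17% of all genes of these cells. Cells without that gate stood at 14345, 14936 and 24561 CPM, and their ratio of the 60 min interval to the control was 1.71 (1.71 to 1.72), as large as that of all epithelial-like cells.

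In single tumor epithelial-like cells thinned to 1000 UMIs, Lcn2 was found more often with Spp1 and less often with Sox9. Of cells with Lcn2, 63.9%, 64.2% and 76.0% held Spp1, against 35.6%, 39.5% and 36.2% of the few without (225, 195 and 130 cells). Of cells with Lcn2, 24.3%, 26.8% and 26.0% held Sox9, against 34.7%, 41.5% and 31.5% of those without, and the binomial intervals overlapped in the 60 min interval. Clu was found in 30.4%, 36.8% and 32.4% of cells with Spp1 and in 21.0%, 22.0% and 21.0% of cells without. Differences of quality or of basal share among these groups of cells were not tested.

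Outside the epithelium of the tumor, most Vcam1 lay in macrophage-like cells, with some in stromal-like and endothelial-like cells. Macrophage-like cells stood at 218, 231 and 401 CPM and held 85.3%, 88.8% and 82.8% of the Vcam1 UMIs of kept cells. The 60 min interval was highest there, with a ratio to the control of 1.84, as in kidney. Endothelial-like cells stood at 14.8, 19.5 and 76.3 CPM, and the 60 min interval was called higher than the control (5.14, 3.44 to 8.02), as were 0.657% of all genes of the class. Stromal-like cells stood at 50.5, 49.0 and 95.5 CPM from 19, 28 and 332 UMIs, with no call (1.89, 1.19 to 3.18, in the 60 min interval). In the kidney endothelial-like cells stood lower in the 60 min interval than in the control (0.68, 0.62 to 0.74). Whether the tissues differ in this was not tested, since each ratio rests on 1 library a side.

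In the tumor library as a whole, Vcam1 stood at 48.0, 39.0 and 136 CPM and was called higher in the 60 min interval than in the control (2.83), beside 4.86% of all genes. Macrophage-like cells were 14.4%, 14.8% and 23.1% of kept tumor cells. Granulocyte-like cells held Lcn2 at 2359, 2484 and 1148 CPM, above the 88.6, 120 and 65.6 CPM of T lymphocyte-like cells. T lymphocyte-like cells held Spp1 at 560, 850 and 343 CPM. Macrophage-like cells held it at 689, 760 and 785 CPM, which is 1.23, 0.89 and 2.29 (2.10 to 2.49) times that level. Spp1 was called lower in granulocyte-like tumor cells of the 60 min interval than in the control (0.46) and the 15 min interval (0.45), beside 5.44% and 12.2% of all genes. It was also called lower in T lymphocyte-like cells of the 60 min than of the 15 min interval (0.40), beside 4.68%. The part of free RNA in these calls was not tested.

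Beyond the members, a list of 39 symbols of tubule injury and repair was followed, of which 37 are in the files. In S1-like cells 10 genes of the list reached 20 CPM in the 15 min interval or the control, and 2 were called lower there, Cyr61 (0.44) and Klf6 (0.40), both immediate early genes. The median log2 ratio of the list was -0.28 beside -0.15 over all genes tested, of which 0.249% were called lower. In the 60 min interval against the control, 11 were tested and 3 were called higher: Gdf15, a stress cytokine, at 16.7 and 51.6 CPM, Cyr61 at 41.9 and 131 CPM (3.12), and Klf6 at 57.1 and 164 CPM (2.87). Of all genes 1.55% were called higher, and the medians were 0.30 for the list and 0.00 for all genes. Igfbp7, the highest of the list otherwise, stood at 907, 1371 and 1034 CPM. In S3-like cells, Gdf15 (0.38), Cyr61 (0.20) and Klf6 (0.16) were called lower in the 15 min interval, beside 0.704% of all genes. None of 11 was called in the 60 min interval, beside 0.606% of all genes higher and 0.0242% lower.

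The list behaved by class elsewhere. In endothelial-like cells 4 of 21 were called lower in the 15 min interval (Cxcl1, Cdkn1a, Cyr61 and Icam1) beside 2.62% of all genes, and none in the 60 min interval, beside 0.491% of all genes higher and 0.555% lower. In macrophage-like kidney cells 6 of 19 were called lower in the 15 min interval, among them Ccl2 (555 and 49.1 CPM) and Hmox1 (527 and 54.9 CPM), and 3 were called higher in the 60 min interval (Plin2, Cyr61 and Klf6). Among all genes of that class, 4.65% were called lower in the first comparison and 1.51% higher in the second. In thick limb-like cells 3 of 15 were called lower in the 15 min interval, and in the 60 min interval 2 of 17 were higher (Vim and Sema5a) and 3 lower (Pax8, Il34 and Dcdc2a), beside 11.6% of all genes called lower in the first comparison and 5.99% higher and 4.62% lower in the second. In tumor epithelial-like cells 3 of 26 were called lower in the 15 min interval, namely Krt8 (0.47), Cxcl1 (0.39) and Hmox1 (0.17), beside 1.33% of all genes, and 3 of 26 higher in the 60 min interval, namely Igfbp7 (2.69), Ctgf (3.74) and Icam1 (2.02), beside 0.668%. No gene of this list and no member was called lower in the 60 min interval of tumor epithelial-like cells, beside 0.324% of all genes.

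**Figure D5:**
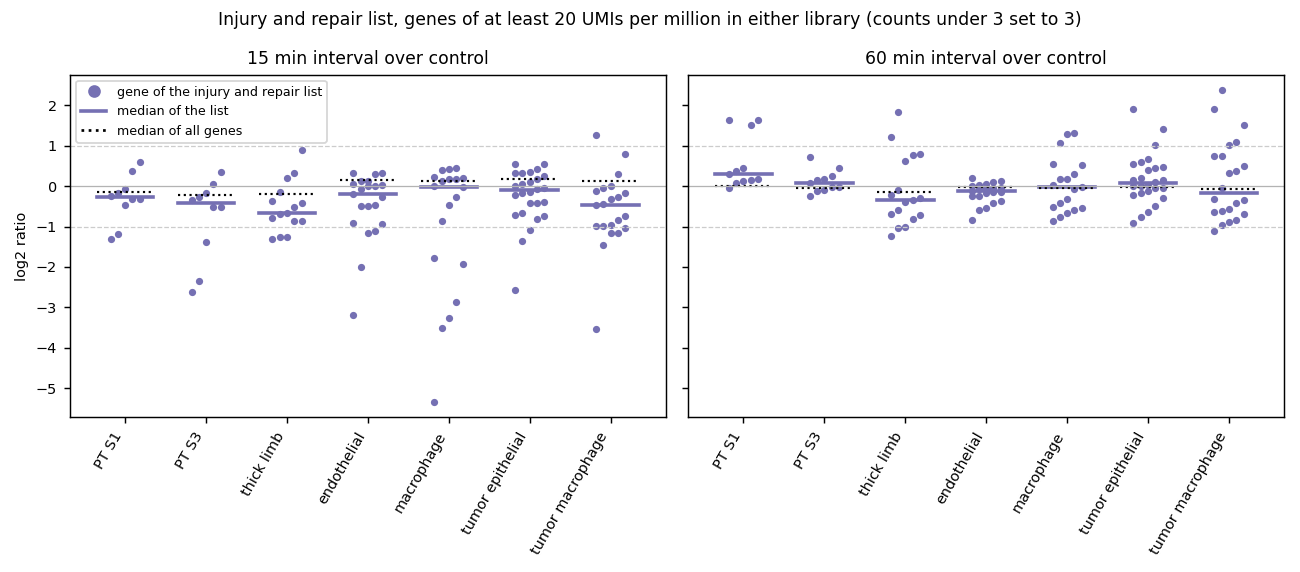
Log2 ratio to the 60 min control (vertical axis) of each injury and repair gene of at least 20 CPM in either library, for 7 classes and both platform intervals, with the median of the list and of all genes tested and counts under 3 set to 3. The points that lie lowest are in the 15 min interval, in macrophage-like and endothelial-like cells, and the 60 min points of S1-like cells include 3 above 1.

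Of 13 receptors and partners of the members, 4 reached 20 CPM in S1-like cells and none was called in any comparison. Across those comparisons between 0.0215% and 1.89% of all genes were called in a given direction. Lrp2, the endocytic receptor megalin that takes up Lcn2, stood at 689, 939 and 901 CPM, and the integrin subunits Itgb1 (47.0, 65.0 and 57.6 CPM) and Itgav (27.3, 32.6 and 28.7 CPM), which bind osteopontin, and the lipoprotein receptor Vldlr stood lower. In tumor epithelial-like cells 6 or 7 were tested and none was called, beside 0.248% to 1.33% of all genes called in a given direction. Cd44, the other receptor of osteopontin, stood there at 53.4, 59.0 and 53.4 CPM and Itgb1 at 162, 208 and 180 CPM. Over all kept kidney cells, whose makeup differed between libraries, 3 of 7 were called lower and 1 higher in the 15 min interval against the control, and 5 of 8 were called higher and 1 lower in the 60 min against the 15 min interval, beside 17.9% lower and 3.23% higher, and 32.1% higher and 7.69% lower, of all genes. Within classes, 1 or 2 were called in at least 1 comparison in distal convoluted tubule-like, principal-like, intercalated-like, endothelial-like, stromal-like and leukocyte classes of kidney, and in basal-like, endothelial-like, stromal-like and leukocyte classes of the tumor. Across such classes and comparisons, between 0.173% and 20.4% of all genes were called in a given direction in kidney, and between 0.657% and 19.8% in tumor. These few calls are not read as a result about the receptors and partners.

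The genes whose levels ran closest to a member were sought over 29 points, each 1 kidney class in 1 library with at least 50 cells, by Pearson correlation of log2(CPM + 1) over 10303 genes. The points share libraries and their free RNA. Gsta4 (0.96), Me3 (0.94) and Grb14 (0.93) ran closest to Spp1, and Pgam2, Tmem52b (both 0.96) and S100g (0.95) to Clu. Gm4951, Fblim1 (both 0.97) and Plxna4 (0.96) ran closest to Vcam1, and Nexmif (0.92), Susd4 and Avpr2 (both 0.85) to Lcn2. Granulocyte-like cells, which held much of the kidney Lcn2 as given above, had fewer than 50 cells in every library and gave no point. The genes named for Lcn2 thus leave out that class and rest on few Lcn2 UMIs. Havcr1 and Sox9 did not reach 20 CPM in a point and have no such genes. With 10 in place of 1 added before the log, 4 of these 12 genes were named again, namely Gsta4, Me3, Pgam2 and Nexmif.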

How the data were processed

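Per the labels, live cells of kidney and MMTV-PyMT tumor were loaded on a droplet platform and their polyA RNA was sequenced. Per the submitters' processing notes and the study's methods, the authors made the deposited UMI counts with Cell Ranger 3.1.0 on mm10, evened the read depth of the libraries when they were aggregated, and filtered cells only afterwards, so the deposited counts hold all called cells. Those counts were used as deposited. Kept cells had at least 200 genes, at most 3000 (kidney) or 4000 (tumor), and a mitochondrial share of at most 50% or 25%, the limits of the study's methods. Doublets were treated only through the gene limit.

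A cell joined a class with at least 2 detected markers of its panel when no other panel exceeded 0.5 of the first, else it was mixed. S1-like and S3-like cells needed at least 2 UMIs of their panel and more than 2 times those of the other. These thresholds were set after cell numbers were seen. UMIs were summed by class and library. CPM had exact Poisson intervals, shares exact binomial (Clopper-Pearson) intervals and ratios exact conditional intervals, all 95% and for counting error only. With 1 library per condition there is no test. A ratio needed 20 cells in each library and 20 CPM in either, and a call was 2-fold. Counts under 3 were set to 3 for the calls, while the ratios of single genes given for the main settings used the counts as they stood. Named genes were the 6 members, list genes that were called or highest in level, and the 3 genes most like each member. The members and lists were chosen with earlier results of these data known. Scripts ran on Python 3.11.15, numpy 2.4.6, pandas 2.3.3 and scipy 1.17.1, and were tested on simulated counts. Alternatives changed the cell filters, the gates, the totals, the averaging, the thinning and the pseudocount. Gene positions came from GENCODE (GRCm38).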

Additional observations from a re-analysis of the deposited data

Results flagged for a closer look

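Cells above the gene limit stand outside the comparisons of kept cells, and 3 members in kidney and 1 in tumor reached at least 2 times the control level there in the 60 min interval. In kidney, Spp1 stood at 637 CPM in those cells of the 60 min interval against 283 in the control, Vcam1 at 21.9 against 7.29, and Sox9 at 2.33 against 0.75. Sox9 lay below the 20 CPM needed for a call, and 2.11% of all genes tested in those kidney cells were called higher. In tumor, Vcam1 stood at 74.6 CPM against 14.3, beside 8.49% of all genes called higher. Of the other members there, 4 were tested and none was called, with Lcn2 at 6708 against 9735 CPM, Clu at 220 against 312, Sox9 at 223 against 229 and Spp1 at 8161 against 6689. These cells were 19.3% of the control and 19.3% of the 60 min interval of kidney.

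Spp1 was called in opposite directions in different classes, which was not tested. In the 15 min interval against the control, macrophage-like kidney cells stood at a ratio of 0.095 (0.01 to 0.35, from 2 and 173 UMIs) and T lymphocyte-like cells at 2.28, where 17 of the 24 UMIs of the 15 min interval lay in 1 cell. In the 60 min interval against the control, Spp1 was called higher in 4 kidney classes. These were proximal tubule-like (2.02), endothelial-like (2.06), T lymphocyte-like (2.16) and B lymphocyte-like cells (2.04). B lymphocyte-like cells, which should not make Spp1, thus rose about as much as endothelial-like and T lymphocyte-like cells. The part of free RNA in these calls was not tested. Spp1 was called lower in granulocyte-like kidney cells (0.094, where 29 of the 32 control UMIs lay in 1 cell) and in granulocyte-like tumor cells (0.46). Between the 2 intervals it was called higher in endothelial-like (3.45) and macrophage-like kidney cells (13.7) and in basal-like tumor cells (2.05) of the 60 min interval. It was called lower there in granulocyte-like (0.45) and T lymphocyte-like tumor cells (0.40). Epithelial-like cells were 68.1% of kept tumor cells in the 15 min interval and 42.0% in the 60 min interval. The part of free RNA in the tumor calls was not tested.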

How the results depend on the processing

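No paired analysis was possible because each condition of a tissue is 1 library, so a shared mouse gives a single pair, and no library could be left out. Over all alternatives, 154 counts of members were within 1.5 times the main count and 23 were not, most of them counts of 2 or fewer in the distal classes. Ratios of single genes moved more often: 409 stayed within the counting interval of the main ratio, 180 moved outside it and 2 called ratios were reversed. Without an upper limit on genes, 1 member (Spp1, 2.04) was called higher in the kidney library of the 60 min interval against the control in place of 0, distal classes had 4 pairs higher in place of 2 and 0 lower in place of 1, and Lcn2 in principal-like cells turned to 1.46. The proximal tubule-like call of Spp1 in the 60 min interval (1 member higher) became 0 without a mitochondrial limit (1.91), as a mean over cells (1.69), with the distal convoluted tubule panel without Emx1 and with the control's segment mix (1.45), the last 2 chosen after seeing the data. In the distal classes, without a mitochondrial limit the 60 min interval had 1 pair higher in place of 2 against the control and against the 15 min interval. As a mean over cells, the 15 min interval against the control had 0 higher and 1 lower, the 60 min interval had 1 higher against the control and 0 lower against the 15 min interval. With 1 more marker required, the 15 min interval had 0 higher, and the 60 min against the 15 min interval 0 higher and 0 lower. With each cell in its panel of highest level, the 15 min interval had 2 higher and 1 lower, the 60 min interval 0 higher against the control and 2 lower against the 15 min interval, and Clu in thick limb-like cells turned to 0.96. Without shared barcodes, and without Emx1, the 15 min interval had 0 higher. With 10 added before the log, 4 of the 12 genes most like a member were shared. The cause of these changes was not tested. Of 156 thinned shares of cells with a member UMI, 21 had an interval above that of B lymphocyte-like cells, and other depths of thinning gave counts within 1.5 times that. Calls of Lcn2, Sox9 and thick limb Clu rest on few UMIs.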
